A study of Jaculus jaculus with 29 samples.

Results

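A set of 10 genes that mark successive stages of the oligodendrocyte lineage was followed across 29 RNA libraries of the jerboa supraoptic nucleus, out of 29170 genes in the count table. They were chosen as a list of symbols: Pdgfra, Cspg4 and Matn4 for early progenitors, Gpr17 and Bmp4 for committed precursors, Enpp6 and Tns3 for newly formed oligodendrocytes, Olig2 and Sox10 for the lineage as a whole, and Col9a3 with no stage assigned. They are treated as chosen by their CPM and log2 differences between the treatments, which were known when the list was made, so those differences are given as a description and support nothing. The jerboa (Jaculus jaculus) lives in deserts, and its supraoptic nucleus holds the vasopressin and oxytocin neurons of the hypothalamus. Polyadenylated RNA came from frozen bilateral punches of single-housed animals fed dry pellets. The 10 Dehydrated libraries came from animals kept on restricted water for 11 days. The 9 Rehydrated libraries came after 7 restricted days that 3 days of free drinking followed, and the 10 Control libraries from animals that drank freely. By the sex label there were 6 females and 4 males in Dehydrated, 4 and 5 in Rehydrated, and 5 and 5 in Control. Genotype, strain and age are not given in the sources used here.

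Oligodendrocytes, the myelin-forming glia, arise in the adult brain from progenitors that carry the platelet-derived growth factor receptor Pdgfra and the proteoglycan Cspg4. A progenitor that leaves this state passes through a committed stage marked in mouse by the receptor Gpr17 and a newly formed stage marked in mouse by the phosphodiesterase Enpp6, before it makes myelin. In rodent brain Gpr17 and Enpp6 transcripts are low again in mature myelinating cells.

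Libraries held 14084542 to 18856620 counts in Dehydrated, 14235024 to 18516535 in Rehydrated and 10797577 to 17834438 in Control. Control M01 had the fewest counts and the highest sum of microglial genes (591 CPM, against 161 CPM in the lowest Control library), so the 10 genes' differences from Control are also given without it. Levels are CPM, the count of a gene scaled to the library total after TMM normalisation, and genes are compared with each other only as CPM per kilobase of counted transcript. A punch holds many cell types, and in such bulk RNA fewer cells of a type and less RNA per cell cannot be told apart. All 10 genes passed the filter on low counts.

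The identity of each gene was checked against the annotation of the mJacJac1 assembly, whose coordinates are used throughout. Pdgfra (ENSJJAG00000015846) lies on chromosome 11 from 14813289 to 14870000, minus strand, Cspg4 (ENSJJAG00000000601) on chromosome 10 from 22783314 to 22830536, minus strand, and Matn4 (ENSJJAG00000011320) on chromosome 8 from 125376455 to 125393760, minus strand. Bmp4 (ENSJJAG00000005612) lies on chromosome 7 from 108503933 to 108512356, minus strand, Enpp6 (ENSJJAG00000015782) on chromosome 1 from 217386089 to 217544297, plus strand, and Tns3 (ENSJJAG00000022591) on chromosome 16 from 11968481 to 12216442, plus strand. The authors' table named 8 of the 10 genes, and the other 2, Gpr17 (ENSJJAG00000026404, chromosome 5, 5915069 to 5924275, plus strand) and Sox10 (ENSJJAG00000034958, chromosome 6, 155566169 to 155574948, minus strand), were named by their position in the RefSeq annotation of the same assembly. Olig2 (ENSJJAG00000019725, chromosome 5, 157317816 to 157318796, plus strand) carries that symbol in the deposited table and in RefSeq, while its deposited description names the neighbouring gene OLIG1. Gpr17 lies inside the span of Lims2 on the opposite strand, and Col9a3 (ENSJJAG00000020792, chromosome 8, 140459432 to 140483634, plus strand) overlaps Tcfl5 on the opposite strand. No strand option was recorded for the counts, so reads in sequence that both genes of a pair cover cannot be told apart.

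All 10 genes were detected, and they differed widely in level. In Control, Sox10, a transcription factor of the whole lineage, had the highest level, 30.95 ± 8.09 CPM per kb (SD, n = 10), followed by Gpr17 with 24.4 ± 11.0, Olig2 with 17.5 ± 8.27, Tns3 with 17.2 ± 3.95 and Pdgfra with 15.04 ± 4.61 CPM per kb. Neighbours within this group of 5 differed by less than 1 SD. A step of more than 1 SD separated Pdgfra from Col9a3 (7.79 ± 3.13 CPM per kb), and Enpp6 (5.63 ± 4.17) and Cspg4 (3.43 ± 0.642) followed. Bmp4 (1.08 ± 0.477) and Matn4 (1.02 ± 0.758) were lowest. Enpp6 stood in eighth place in Dehydrated (0.986 ± 0.527 CPM per kb, n = 10) and in Rehydrated (1.34 ± 2.18 CPM per kb, n = 9) and in seventh place in Control, while Sox10 was first in all 3 groups. The counts behind the low genes were few: Matn4 had 0 to 67 counts per library, Enpp6 3 to 244 and Bmp4 21 to 135, against 846 to 4961 for Gpr17.

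**Figure D1:**
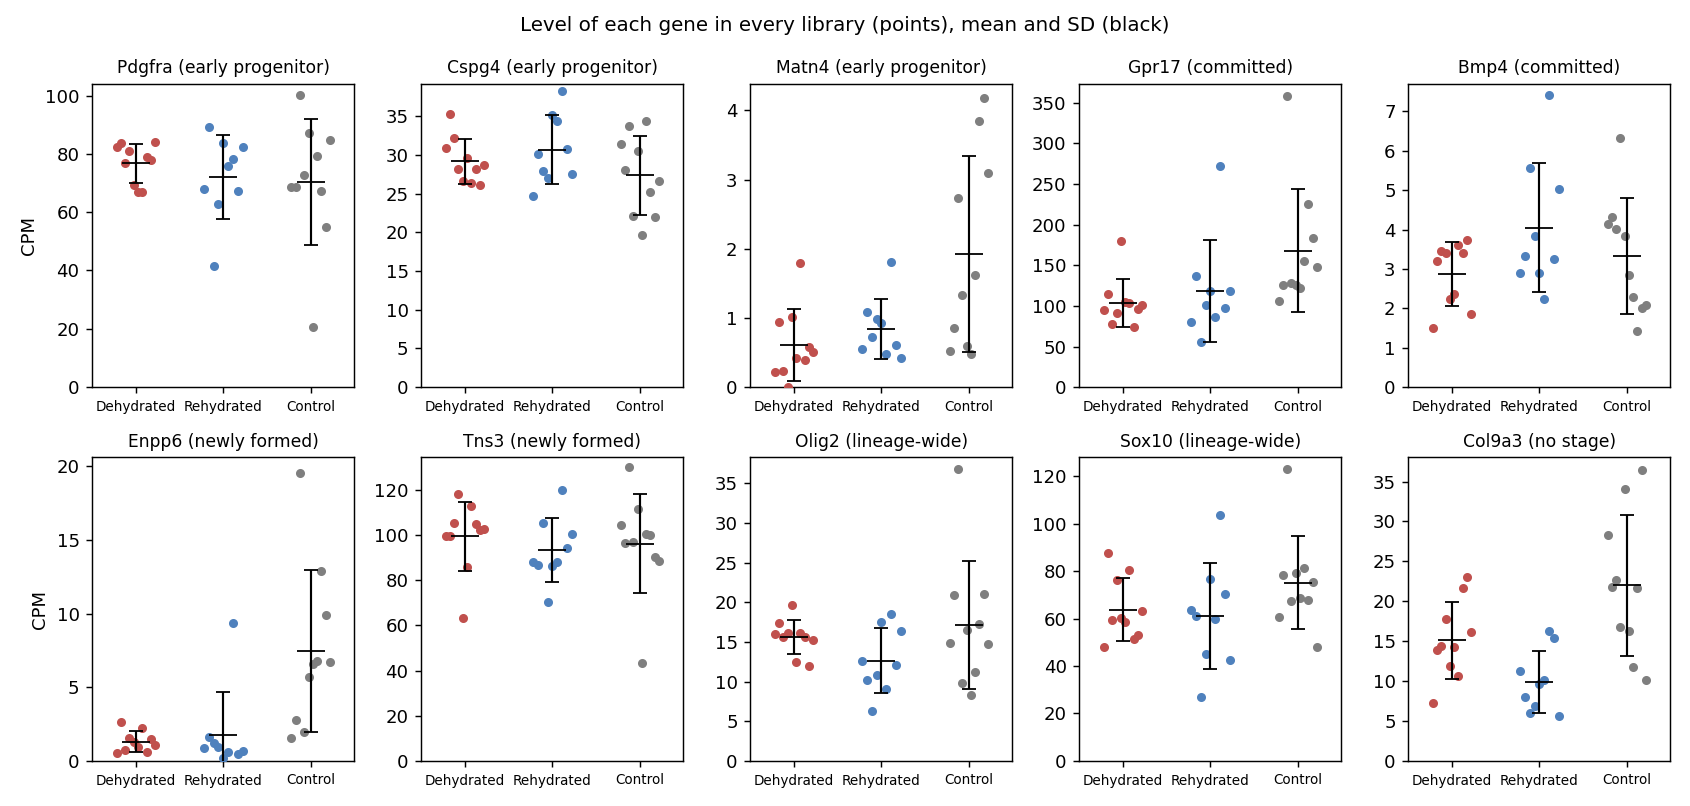
Level of each of the 10 genes in CPM (vertical axes, each starting at 0) in every library, by treatment. Points are libraries and black bars give the mean and SD of 10 Dehydrated, 9 Rehydrated and 10 Control libraries. Enpp6 was at most 2.63 CPM in Dehydrated and reached 19.6 CPM in Control, while Pdgfra, Cspg4 and Tns3 overlapped widely between treatments.

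In Dehydrated against Control, Enpp6, Matn4, Gpr17 and Col9a3 had the largest differences, all lower, and the other 6 lay within 0.22 of 0 on the log2 scale. By edgeR (quasi-likelihood test, Benjamini-Hochberg adjustment over 17558 genes), 0.125% of genes were called at an adjusted p below 0.05 in this comparison, and 0 of the 10 were among them. At an unadjusted p below 0.05 there were 4 of the 10, against 1118 of all genes (6.37%). DESeq2 called 1 of the 10, Enpp6, and 39 of all genes (0.222%). The median log2 difference of the 10 was -0.21, with 7 lower and 3 higher, beside -0.003 over all genes tested; without Control M01 it was -0.22.

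Among the early progenitor genes, Pdgfra, the receptor through which platelet-derived growth factor drives progenitor division, was at 67.0, 78.5 and 84.0 CPM (lowest, median and highest) in Dehydrated and at 20.6, 70.8 and 100.1 CPM in Control. The lowest Control value was that of Control M01. Without it Control spanned 54.8 to 100.1 CPM, and all 10 Dehydrated libraries fell inside that range. Pdgfra differed by 0.13 (SE 0.16) on the log2 scale, and by 0.03 (SE 0.10) without Control M01.

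Cspg4, the NG2 proteoglycan of the progenitor surface, showed the same overlap, with 26.1, 28.4 and 35.3 CPM in Dehydrated and 19.7, 27.3 and 34.4 CPM in Control. Its log2 difference was 0.10 (SE 0.10), and 0.06 without Control M01. Matn4, which encodes the matrix protein matrilin-4, behaved otherwise. It was at 0, 0.465 and 1.80 CPM in Dehydrated and at 0.476, 1.47 and 4.18 CPM in Control. The 0 was Dehydrated F06, where 3 counts would have been 0.19 CPM. In Dehydrated 9 of 10 libraries lay below the Control median and 5 below the lowest Control library, with a log2 difference of -1.58 (SE 0.45; edgeR adjusted p = 0.377), and of -1.69 without Control M01. In the authors' deposited table the log2 fold change of Matn4 was -1.72, with an adjusted p of 0.0384. The deposited log2 values of the 10 genes lie nearer the fit without Control M01 than the fit of all 29 libraries. The deposited results may thus rest on other libraries than those used here.

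Of the committed genes, Gpr17, a G protein-coupled receptor that in mouse holds precursors short of maturation, was at 73.6, 98.8 and 180.3 CPM in Dehydrated and at 106, 138 and 358.5 CPM in Control. In Dehydrated 8 of 10 libraries lay below the lowest Control library, and F07 alone, at 180.3 CPM, lay above the Control median. The log2 difference was -0.62 (SE 0.23; edgeR adjusted p = 0.633). It lay between -0.76 and -0.47 as each library was left out in turn, and was -0.66 without Control M01. Bmp4, a secreted ligand that in rodents turns progenitors away from the oligodendrocyte fate and is itself transcribed at the committed stage, was at 1.49, 3.30 and 3.72 CPM in Dehydrated and at 1.43, 3.35 and 6.33 CPM in Control, a log2 difference of -0.20 (SE 0.24), and of -0.21 without Control M01.

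Of the newly formed genes, Enpp6, a choline-specific phosphodiesterase, had the largest difference of the 10. It was at 0.567, 1.18 and 2.63 CPM in Dehydrated and at 1.58, 6.65 and 19.6 CPM in Control. All 10 Dehydrated libraries lay below the Control median and 8 below the lowest Control library; the overlap came from Control F01 (1.58 CPM) and F05 (1.99 CPM) and from Dehydrated F04 (2.63 CPM) and M05 (2.25 CPM). The mean was 1.30 ± 0.697 CPM in Dehydrated and 7.45 ± 5.52 CPM in Control (SD, n = 10 each). The log2 difference was -2.28 (SE 0.52), 28th by p among all genes tested.

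The adjusted p of Enpp6 was 0.0767 in edgeR and 0.00683 in DESeq2, and it also fell below 0.05 in edgeR with no sex covariate (0.037), with only the 2 groups in the fit (0.0219), without Rehydrated M05 (0.00447) and without Rehydrated M01 (0.0474). Without Control M01 the log2 difference was -2.32 and the adjusted p 0.127, and the adjusted p reached 0.816 in the fit of females alone. In the authors' deposited table the log2 fold change was -2.32 with an adjusted p of 0.00992. The direction was the same in all 41 alternative fits, with a log2 difference between -2.96 and -1.75. These fits reuse the same libraries, and Enpp6 was listed with its difference known, so the shared direction adds no support.

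Tns3, a focal adhesion protein that in mouse is enriched as progenitors differentiate, was at 63.2, 102.5 and 118 CPM in Dehydrated and at 43.3, 98.5 and 130.1 CPM in Control. The log2 difference was 0.05 (SE 0.12), and -0.03 without Control M01, whose 43.3 CPM was the lowest of all libraries. In the authors' deposited table the log2 fold change of Tns3 was also -0.03. The 2 newly formed genes lay more than 2 log2 units apart, so their median of -1.12 describes neither.

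The lineage-wide factors lay close to Control. Olig2, needed for progenitors to form, was at 11.9, 15.8 and 19.6 CPM in Dehydrated and at 8.28, 15.7 and 36.8 CPM in Control, a log2 difference of -0.11 (SE 0.20), and of 0.06 without Control F03. Sox10, which sustains the lineage through myelination, was at 47.9, 59.7 and 87.6 CPM in Dehydrated and at 48.2, 72.1 and 123 CPM in Control, a difference of -0.21 (SE 0.17). Without Control M01 the differences were -0.18 for Olig2 and -0.23 for Sox10. Col9a3, a chain of collagen IX, was at 7.30, 14.4 and 23.03 CPM in Dehydrated and at 10.2, 21.7 and 36.5 CPM in Control. It was below the Control median in 9 of 10 Dehydrated libraries, with a log2 difference of -0.54 (SE 0.23; edgeR adjusted p = 0.72), and of -0.59 without Control M01.

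**Figure D2:**
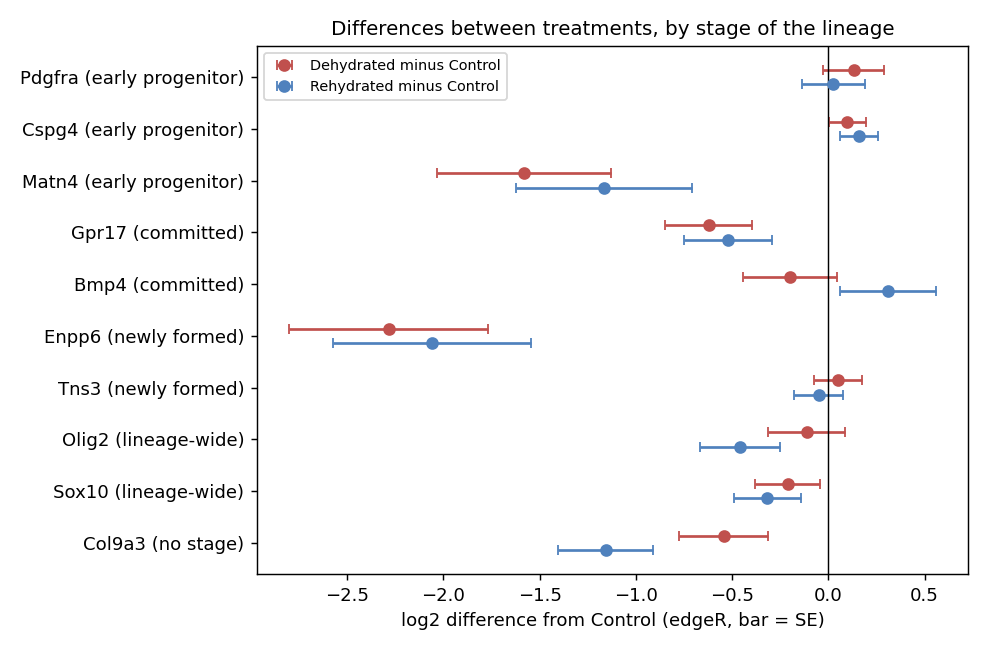
Log2 difference from Control (horizontal axis) of each gene in Dehydrated and in Rehydrated, from edgeR, with bars of 1 SE, ordered by stage. Enpp6 lay at -2.28 and -2.06, while Pdgfra, Cspg4 and Tns3 lay within 0.16 of 0 in both.

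After water was returned, Rehydrated libraries were again set against the same Control libraries, so the 2 sets of differences share their controls. In edgeR 0 of 17558 genes (0%) passed in Rehydrated against Control, with 1313 at an unadjusted p below 0.05 (7.48%), while DESeq2 called 18 (0.103%). Of the 10 genes, 0 passed in edgeR, 5 had an unadjusted p below 0.05 and 1, Col9a3, was called by DESeq2. Their median log2 difference was -0.39, and -0.44 without Control M01, beside 0.003 over all genes.

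Enpp6 was at 0.163, 0.894 and 9.38 CPM in Rehydrated and at 1.58, 6.65 and 19.6 CPM in Control. The highest value was that of Rehydrated M05, and the other 8 libraries lay between 0.163 and 1.61 CPM. In 7 of 9 Rehydrated libraries Enpp6 was below the lowest Control library. The log2 difference was -2.06 (SE 0.52; edgeR adjusted p = 0.37, range over alternatives 0.00444 to 0.994). Without Rehydrated M05 it was -3.10, with an adjusted p of 0.00444, and the mean of the remaining 8 libraries was 0.816 ± 0.455 CPM.

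Col9a3 had the smallest p of all genes in this comparison. It was at 5.63, 9.64 and 16.3 CPM in Rehydrated and at 10.2, 21.7 and 36.5 CPM in Control. All 9 Rehydrated libraries lay below the Control median and 6 below the lowest Control library. The log2 difference was -1.16 (SE 0.25), with an adjusted p of 0.37 in edgeR, 0.013 in DESeq2 and 0.0267 in the authors' deposited table, where the log2 fold change was -1.22. Over libraries left out in turn, the edgeR value ran from 0.111 to 0.636.

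Matn4 was at 0.415, 0.719 and 1.81 CPM in Rehydrated (log2 difference -1.17, SE 0.46), and 8 of 9 libraries lay below the Control median of 1.47 CPM. Gpr17 was at 55.3, 100.5 and 272 CPM (log2 difference -0.52, SE 0.23), with Rehydrated M05 at 272 CPM and the other 8 libraries at 136.5 CPM or lower. Olig2 was at 6.34, 12.2 and 18.5 CPM (-0.46, SE 0.21) and Sox10 at 26.9, 61.2 and 104 CPM (-0.32, SE 0.17). Rehydrated F05 was the lowest of all 29 libraries in Gpr17, Olig2 and Sox10. Without Control M01 the log2 difference from Control was -2.10 for Enpp6, -1.21 for Col9a3, -1.28 for Matn4, -0.57 for Gpr17, -0.55 for Olig2 and -0.34 for Sox10.

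The remaining genes lay near their Control levels. Pdgfra was at 41.6, 75.7 and 89.3 CPM in Rehydrated (log2 difference 0.03, SE 0.16), Cspg4 at 24.7, 30.1 and 38.3 CPM (0.16, SE 0.10), Tns3 at 70.2, 88.2 and 120.2 CPM (-0.05, SE 0.13) and Bmp4 at 2.25, 3.33 and 7.41 CPM (0.31, SE 0.25). Without Control M01 the difference of Pdgfra changed sign, to -0.09, and those of Cspg4, Tns3 and Bmp4 were 0.11, -0.14 and 0.30. Set directly against Dehydrated, Rehydrated differed in 4 of 17558 genes (0.0228%), and 0 of the 10 were among them. DESeq2 called 13 genes (0.074%), and 0 of the 10. At an unadjusted p below 0.05 in edgeR there were 681 of all genes (3.88%) and 2 of the 10. These were Col9a3 (log2 difference -0.61, SE 0.24) and Bmp4 (0.51, SE 0.25), each with an edgeR adjusted p of 1. Enpp6 differed by 0.22 (SE 0.54) between Rehydrated and Dehydrated, and by -0.68 without Rehydrated M05. A return of Enpp6 after 3 days of water was thus not detected, and with such an SE a partial return is not excluded. The 2 groups also differ in restricted days, 7 in Rehydrated and 11 in Dehydrated. No group was taken after 7 restricted days without free drinking. Length of restriction and return of water therefore cannot be told apart in this comparison.

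The genes were also compared within each library as ratios of counts, which do not depend on library scaling. The ratio of Gpr17 to Pdgfra had a median of 1.22 in Dehydrated, 1.44 in Rehydrated and 1.90 in Control, with ranges of 0.93 to 2.60, 1.14 to 3.48 and 1.45 to 5.90; the highest was that of Control M01, and the next Control library was at 3.58. The ratio of Enpp6 to Pdgfra had medians of 0.0162, 0.0132 and 0.0827 in Dehydrated, Rehydrated and Control, while that of the other newly formed gene, Tns3, to Pdgfra had 1.30, 1.23 and 1.37. Enpp6 was also lower relative to Gpr17, with medians of 0.00979 in Dehydrated, 0.00905 in Rehydrated and 0.0453 in Control, whereas the ratio of Bmp4 to Gpr17 had medians of 0.0314, 0.0334 and 0.0191. The ratio of the early genes Cspg4 and Pdgfra had medians of 0.379 in Dehydrated, 0.431 in Rehydrated and 0.388 in Control, and that of Matn4 to Pdgfra had 0.00637 (9 libraries, Matn4 being at 0 in the other), 0.0110 and 0.0217. Groups overlapped in each of these ratios.

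Other genes of the lineage, from lists of the same stages, were set beside these. Of 17 further progenitor genes 0 passed in Dehydrated against Control, with 11 lower and a median of -0.04. The transcription factor gene Sox8 (-0.21, SE 0.10) and the receptor gene Gpr37l1 (-0.18, SE 0.10) had the smallest p. Of 15 further committed and newly formed genes 0 passed, with 10 lower and a median of -0.07. Rras2, a small GTPase gene that was at 13 ± 2.14 CPM in Dehydrated (n = 10), 12.8 ± 2.31 CPM in Rehydrated (n = 9) and 17.1 ± 4.28 CPM in Control (n = 10), differed by -0.36 (SE 0.13), and Bcas1, which in mouse marks early myelinating cells, by -0.37 (SE 0.16).

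Mature oligodendrocyte genes stood lower as well. Of 15 matched, 14 were lower in Dehydrated and 13 in Rehydrated, with medians of -0.27 and -0.39 (-0.26 and -0.44 without Control M01), and 0 passed in either comparison. Cnp, a myelin enzyme gene, was at 430.5 ± 108 CPM in Dehydrated (n = 10), 408 ± 181 CPM in Rehydrated (n = 9) and 574 ± 157 CPM in Control (n = 10). The summed level of the 15 genes ran from 2967 to 7429 CPM in Dehydrated, 1528 to 9630 CPM in Rehydrated and 3399 to 7640 CPM in Control, and none of the 15 was at 0 in every library of a group. The lowest sum was that of Rehydrated F05 and the highest that of Rehydrated M05. The part of the myelin content of a punch in the differences of Enpp6, Gpr17 and Matn4 was not tested.

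No signalling gene listed around the lineage passed the test in a comparison of treatments. For the BMP pathway 0 of 23 genes passed in any treatment comparison, and the medians lay within 0.05 of 0. Nog, which encodes the BMP antagonist noggin, was at 9.45 ± 2.46 CPM in Dehydrated (n = 10), 6.05 ± 1.15 CPM in Rehydrated (n = 9) and 7.12 ± 1.54 CPM in Control (n = 10). It differed by 0.42 (SE 0.14; edgeR adjusted p = 0.569) in Dehydrated against Control and by -0.66 (SE 0.15; edgeR adjusted p = 0.203) in Rehydrated against Dehydrated.

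Of 11 genes for platelet-derived and fibroblast growth factor signals, 0 passed in the 3 comparisons. Pdgfa, the ligand of Pdgfra, was at 30.7 ± 3.83 CPM in Dehydrated (n = 10), 31.4 ± 4.36 CPM in Rehydrated (n = 9) and 36.3 ± 9.44 CPM in Control (n = 10), and Fgf9 differed by -0.32 (SE 0.11) in Dehydrated against Control. Among 12 genes listed around brakes on differentiation 0 passed, with medians of 0.04 in Dehydrated and 0.08 in Rehydrated against Control. The list held Lingo1 and genes of the Notch and Wnt pathways, inhibitors of Wnt signalling such as Apc and Axin2 among them. Jag1, a Notch ligand, differed by 0.24 (SE 0.10) in Dehydrated against Control. Of 13 tested cell division genes 0 passed, and their median was -0.05 in Dehydrated against Control; the mitotic kinase Cdk1 was at 0.377 ± 0.250 CPM in Dehydrated (n = 10), 0.908 ± 0.883 CPM in Rehydrated (n = 9) and 1.05 ± 0.834 CPM in Control (n = 10).

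Whether the response differed between the sexes was tested in a model of treatment by sex, a contrast that played no part in the choice of the genes. In edgeR 0% of genes passed in the sex difference of the Dehydrated response and 0% in that of the Rehydrated response, with 1063 (6.05%) and 1085 (6.18%) at an unadjusted p below 0.05 and 2 and 0 genes by DESeq2. Of the 10 genes 0 passed in either, and 1 in each had an unadjusted p below 0.05, which was Col9a3. In females Col9a3 averaged 13.3 ± 3.48 CPM in Dehydrated (n = 6), 8.01 ± 2.33 CPM in Rehydrated (n = 4) and 27.5 ± 8.25 CPM in Control (n = 5). The male means were 17.9 ± 5.64 CPM in Dehydrated (n = 4), 11.4 ± 4.40 CPM in Rehydrated (n = 5) and 16.5 ± 5.66 CPM in Control (n = 5).

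All 4 Rehydrated females lay below all 5 Control females in Col9a3, with at most 11.3 CPM against at least 16.8 CPM. How many of all genes separate likewise is not given here. Col9a3 was listed with its difference from Control known, so this separation adds no support. The difference between the female and male responses was -1.16 (SE 0.40; edgeR adjusted p = 0.811) for Dehydrated and -1.25 (SE 0.42; edgeR adjusted p = 0.799) for Rehydrated. A fit of females alone, which called 2 of all genes (0.0113%), gave a log2 difference of -1.77 in Rehydrated against Control, with an edgeR adjusted p of 0.0319, and a fit of males alone gave -0.53. In Dehydrated against Control the same fits gave -1.05 in females and 0.12 in males. In Rehydrated against Control a fit of F-named libraries alone gave -1.63, with an edgeR adjusted p of 0.0508. Among M-named libraries the mean of Col9a3 was also lower. It was 11.4 ± 4.40 CPM in Rehydrated and 19.3 ± 10.6 CPM in Control (n = 5 each). Between females and males over the treatments 0.0342% of genes passed and 0 of the 10 did, with 9 lower in females; the largest difference was that of Enpp6 (-0.81, SE 0.43; edgeR adjusted p = 0.993).

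The letter in the library name disagrees with the sex label in 3 libraries, and values were also taken within each letter. Enpp6 did not overlap among M-named libraries, with 0.589 to 2.25 CPM in Dehydrated and 6.57 to 12.9 CPM in Control. How many of all genes separate likewise is not given here. Enpp6 was listed with its difference known, so this separation adds no support. Among F-named libraries it overlapped, with 0.567 to 2.63 CPM and 1.58 to 19.6 CPM. The log2 difference was -2.77 within M and -2.19 within F. Bmp4 differed between letters in Control, where M-named libraries lay at 1.43 to 2.86 CPM and F-named libraries at 3.84 to 6.33 CPM, while the letters overlapped in Dehydrated and in Rehydrated. For this split too, the share of all genes that separate likewise is not given. Its log2 difference in Dehydrated against Control was 0.49 within M and -0.71 within F, and in Rehydrated against Control 0.97 within M and -0.21 within F. In the fit with the letter in place of the sex label, the difference between the letters' responses of Bmp4 was -1.20 (SE 0.42; edgeR adjusted p = 0.406) for Dehydrated and -1.19 (SE 0.43; edgeR adjusted p = 0.318) for Rehydrated.

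Co-variation between libraries of the same treatment and sex was tested next, since the choice of the genes did not use it. Log2 CPM values were taken relative to the means of treatment and sex, and all 45 pairs were tested by permutation. The 29 points share the depth and the tissue makeup of each punch. Pearson's r ran from -0.125 to 0.685 with a median of 0.261, and was above 0 in 42 of 45 pairs. The highest r, that of Pdgfra with Tns3, was 0.121 without Control M01, and its rho over all libraries was 0.322 (permutation p = 0.0891, adjusted 0.286). In 6 pairs both r and Spearman's rho passed at an adjusted p below 0.05, all of them positive. The share of pairs of other genes that would pass is not given here. Among 17557 other genes, Olig2 was 104th and Enpp6 64th in rho with Gpr17. By the same measure Sox10 was 111th with Olig2, and Cspg4 189th with Pdgfra.

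These pairs joined genes of different stages, except Pdgfra with Cspg4 and Olig2 with Sox10. Gpr17 varied with Olig2 (r = 0.676, rho = 0.537; permutation p = 9e-05 and 0.0032, adjusted 0.00225 and 0.0206) and with Enpp6 (r = 0.643, rho = 0.582; permutation p = 0.00026 and 0.00117, adjusted 0.0039 and 0.0132). Without Control F03 and Rehydrated M05, the 2 libraries farthest from the Gpr17 median, r was 0.531 with Olig2 and 0.407 with Enpp6. Olig2 varied with Sox10 (r = 0.574, rho = 0.556; permutation p = 0.00125 and 0.00205, adjusted 0.0112 and 0.0154), with r = 0.523 without Control F03 and Control M01. With sex differences left in the values this pair no longer passed, and the other 5 did.

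Matn4 varied with Gpr17 (r = 0.553, rho = 0.592; permutation p = 0.00192 and 0.00104, adjusted 0.0123 and 0.0132) and with Enpp6 (r = 0.506, rho = 0.611; permutation p = 0.00527 and 0.00067, adjusted 0.0237 and 0.0132). Without Control M05 and Dehydrated F06 these values of r were 0.600 and 0.598. With Pdgfra, its partner in the early stage, Matn4 had r = 0.176 and rho = -0.106 (permutation p = 0.365 and 0.582, adjusted 0.608 and 0.806). Among 17557 other genes, Enpp6 was 21st and Gpr17 35th in rho with Matn4. With the other later-stage genes Matn4 had r = 0.074 and rho = -0.130 (Tns3) and r = -0.125 and rho = -0.086 (Bmp4), with permutation p of 0.5 to 0.704 (adjusted 0.713 to 0.867). Matn4 rests on few counts, and the difference between its correlations was not tested.

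Pdgfra varied with Cspg4 (r = 0.612, rho = 0.596; permutation p = 0.0001 and 0.00081, adjusted 0.00225 and 0.0132). Without Control M01 and Rehydrated F05 r was 0.525, and without Control M01 alone it was 0.458 with an adjusted p of 0.0631, so the call rests on that library. For Pdgfra and Enpp6 no relation was detected (r = 0, rho = -0.031; permutation p = 0.999 and 0.875, adjusted 0.999 and 0.938). Of the 6 pairs, 5 passed without Control M01, and Bmp4 with Tns3 then joined them (r = 0.534 and rho = 0.575, against r = 0.350 and rho = 0.559 with all libraries).

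**Figure D3:**
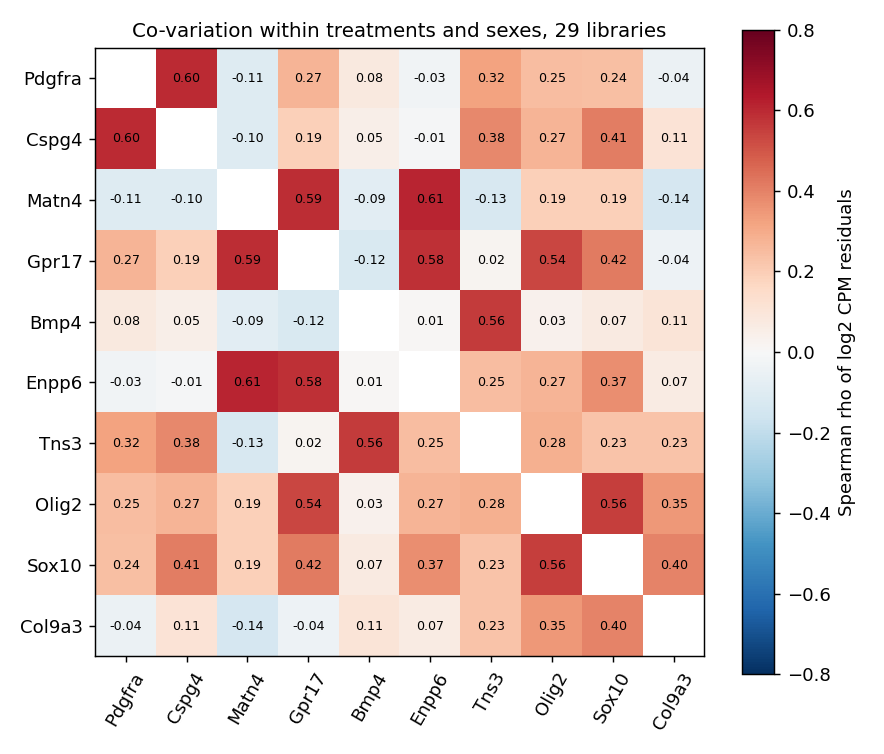
Spearman's rho between each pair of the 10 genes over 29 libraries, from log2 CPM with the means of treatment and sex removed (colour scale from -0.8 to 0.8, values printed in the cells). Matn4, Gpr17 and Enpp6 varied together (rho 0.58 to 0.61), and Bmp4 lay between -0.12 and 0.11 with every gene but Tns3 (0.56).

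The genes most like Enpp6 over the 29 libraries, by Spearman's rho on the same values, were Aacs (0.768), Hmgcs1 (0.739), Ttc5 (0.713), Garin5a (0.702) and Sgk2 (0.700). For Gpr17 they included Vldlr (0.738), Fgd2 (0.719), Rnf122 (0.711) and Olig1 (0.698), the last being a transcription factor gene of the oligodendrocyte lineage. For Pdgfra they were Adam10 (0.809), Fyco1 (0.770), Ttll7 (0.760), Cbl (0.758) and Gatd1 (0.751), which lay between 0.505 (Cbl) and 0.737 (Fyco1) without Control M01. These ranks are a description of 29 punches.

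Bmp4 kept different company. The genes most like it were Kcnj13 (0.826), Cdh1 (0.801), Mrgprf (0.796), Osr1 (0.777) and Lrig3 (0.773), with 0.781 to 0.835 for these genes without Control M01. Kcnj13, a potassium channel of epithelia, stands in the choroid plexus and ependymal list used here. Over the 7 tested genes of that list, however, the median rho of Bmp4 was only 0.096. The median rho of Bmp4 was 0.687 with 9 fibroblast genes, -0.091 with 15 mature oligodendrocyte genes, -0.037 with 15 other committed and newly formed genes and 0.037 with 17 other progenitor genes. With the same 4 lists Gpr17 had medians of -0.058, 0.391, 0.303 and 0.235, and Enpp6 0.067, 0.403, 0.311 and 0.150. These values go against the committed label for Bmp4 in these punches.

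**Figure D4:**
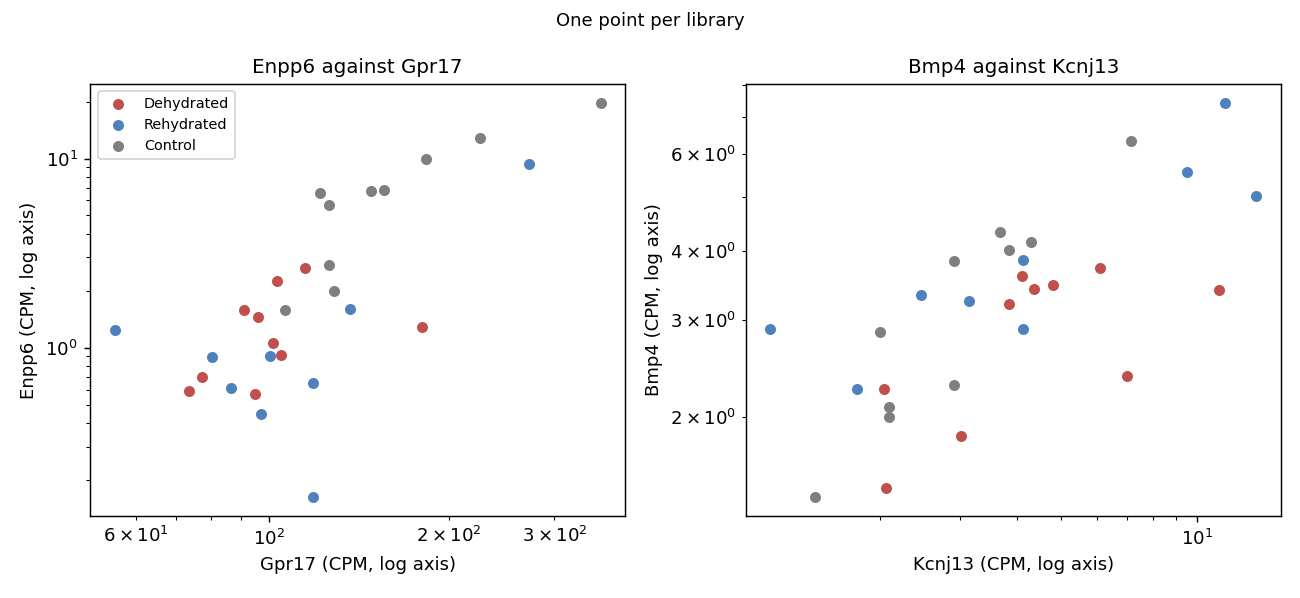
Left, Enpp6 against Gpr17, and right, Bmp4 against Kcnj13, both in CPM on log axes, with 1 point per library coloured by treatment. Enpp6 was highest in Control F03 (19.6 CPM) together with Gpr17 (358.5 CPM), and Bmp4 was highest in Rehydrated M05 (7.41 CPM), where Kcnj13 was at 11.5 CPM.

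The fibroblast genes beside Bmp4 summed to 31.8 to 162.5 CPM in Dehydrated, 47.9 to 337 CPM in Rehydrated and 78.6 to 191 CPM in Control, with none of the 9 at 0 in every library of a group, and 0 passed in any comparison. The 9 choroid plexus and ependymal genes summed to 18.8 to 49.5 CPM in Dehydrated, 22.4 to 69.0 CPM in Rehydrated and 20.2 to 49.5 CPM in Control. One of 7 tested passed, Kl (klotho), which was higher in Dehydrated than in Control (log2 difference 1.74, SE 0.37; edgeR adjusted p = 0.0476, and 0.0951 without Control M01), and Ttr, which defines choroid plexus epithelium, had a median of 0.117 CPM. The part of membranes and vessels caught in a punch in the level of Bmp4 was not tested. For Pdgfra, which fibroblasts also carry, the median rho was -0.067 with the fibroblast list and 0.262 with the 17 other progenitor genes.

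Genes of other cell types were set beside these. In Dehydrated against Control 0 genes passed among 10 mural, 11 astrocyte, 9 microglial, 9 endothelial and 3 blood genes, with medians of -0.07, 0.003, -0.20, -0.06 and -1.47. Their sums in Dehydrated, Rehydrated and Control were 266 to 388, 285 to 414 and 225 to 367 CPM for mural genes, and 2852 to 3884, 2869 to 4195 and 2523 to 4740 CPM for astrocyte genes. For microglial genes they were 164 to 238, 184 to 280 and 161 to 591 CPM, the last of these in Control M01, and without that library the median of this list was 0.03. For endothelial genes they were 303 to 373, 299 to 474 and 318 to 399 CPM, and for blood genes 31.8 to 188, 34.3 to 992 and 114 to 807 CPM. None of these genes was at 0 in every library of a group, and the part of these cell types in the differences of the 10 genes was not tested. Of 12 magnocellular genes, which mark the neurons the punch was aimed at, Avp, Pdyn, Pcsk1 and Caprin2 rose in Dehydrated against Control, and Avp missed the threshold without Control M01 (edgeR adjusted p = 0.0879, against 0.0388 with all libraries). Pcsk1 fell in Rehydrated against Dehydrated (log2 difference -1.26, SE 0.23; edgeR adjusted p = 0.0411).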

How the data were processed

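Per the file headers, the authors counted reads per gene with featureCounts 1.6.2 and set no strand option; the annotation was Ensembl's for mJacJac1, and the alignment names there carry the word Rsubread, with no aligner stated otherwise. Log2 fold changes, their errors and p-values are in the authors' deposited tables, and the submitters' processing notes name DESeq2; 56 columns of values per library in them were not used. Names came from those tables (9699 genes) or from the RefSeq gene at the same place (5594 genes, reciprocal overlap 0.5 or more).

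The test on the deposited counts was that of edgeR 4.0.16 (R 4.3.3): filterByExpr on the group (17558 genes kept, 11612 removed with 0.126% of counts), TMM, and a robust quasi-likelihood fit with group and sex label over 29 libraries (25 residual degrees of freedom), Benjamini-Hochberg adjusted over all genes, threshold 0.05. The SE is the log2 difference divided by the square root of F. Correlations used 100000 permutations, two-sided, in Python 3.11.15 (numpy 2.4.6, pandas 2.3.3, scipy 1.17.1), adjusted over 45 pairs. Alternatives were DESeq2 1.42.0, its size factors, other filters, covariates and subsets, a replicate block and each library left out. Code was tested on simulated data. Figures used matplotlib 3.10.9.

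The genes, lists and comparisons were chosen with earlier results of these data known. Text names all 10 genes, the genes of other lists past the threshold, and, for the lineage and signalling lists, genes among the 2 with the smallest p in a comparison; for likeness, the 5 named genes with the highest rho, of which 1 is not reported here. The fits within a name letter were chosen after seeing the data. Libraries were treated as separate animals, as the labels number them within groups; p-values measure the spread between these samples, which may be technical. All 126 replicate pairs differed beyond counting noise (chi-square per degree of freedom 8.92 to 164). No sequence is printed.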

Additional observations from a re-analysis of the deposited data

Results flagged for a closer look

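Of the 30 sets of 1 gene in 1 treatment, 8 held a library far from the others. The rule was the gap to its neighbour relative to the whole range (Dixon's 95% critical value). Chance gives about 1 in 20 where sets are independent and values normally distributed. CPM was not log-transformed and the sets share libraries, so that rate need not hold here. Rehydrated M05 was highest in Enpp6 (9.38 CPM, next 1.61), Gpr17 (272 CPM, next 136.5) and Matn4 (1.81 CPM, next 1.09); its mature oligodendrocyte sum, 9630 CPM, was also the highest of all libraries. Control F03 was highest in Gpr17 (358.5 CPM, next 225), Olig2 (36.8 CPM, next 20.98) and Sox10 (123 CPM, next 81.5). Without it Gpr17 averaged 147 ± 37.1 CPM and Sox10 69.7 ± 10.6 CPM in the other 9 Control libraries. Dehydrated F07 was highest in Gpr17 (180.3 CPM, next 115), and Control M01 lowest in Tns3 (43.3 CPM, next 88.7).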

How the results depend on the processing

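The number of the 10 genes past the threshold in Dehydrated against Control was 0 and became 1, Enpp6, under DESeq2, with no sex covariate and with only the 2 groups in the fit; with a library left out it ran from 0 to 1. In Rehydrated against Control it was 0 and became 1 under DESeq2 and in females alone (Col9a3), and ran from 0 to 1 with a library left out (Enpp6, without Rehydrated M05). The median of the 2 committed genes in Rehydrated against Control was -0.10, -0.53 within F-named and 0.35 within M-named libraries. Mean Gpr17 was lower than in Control within both letters (93.2 against 169 CPM in F, 139 against 167 CPM in M). Of these 2 genes only Bmp4 changed direction (3.90 against 4.53 CPM in F, 4.16 against 2.13 CPM in M). Outside the committed stage, mean Pdgfra, Cspg4, Tns3, Olig2 and Sox10 also lay below Control in F and above it in M. Matn4, Enpp6 and Col9a3 were lower in both letters. The cause was not tested. Over all settings, these included, 1217 of 1230 log2 differences, 367 of 369 stage medians and 220 of 228 counts stayed within the spread between libraries or on the same side of the threshold. The settings reuse the same libraries, many leaving out only 1 of them, so such agreement is no separate support. Over all genes, calls in Dehydrated against Control numbered 22, 39 under DESeq2, 11 with only the 2 groups, 11 under the replicate block, 13 in M-named libraries and 0 in females, males or F-named libraries; in Rehydrated against Control they numbered 0, 18 under DESeq2 and 2 in females; in Rehydrated against Dehydrated they numbered 4, 13 under DESeq2, 8 under the replicate block, 1 with only the 2 groups, 1 in males and 0 in females or within a name letter. No pairing by library number was seen: of 19 same-name pairs 0 correlated above 0.1 (-0.115 to 0.081). Differently named pairs are not given beside them, so whether the numbers pair samples is not decided. Under the replicate block Enpp6 differed by -2.35 (adjusted p = 0.302) in Dehydrated against Control, with 0 of the 10 genes called. Depth limits Matn4, Enpp6 and Bmp4 most.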
